A study of Mus musculus with 11 samples.

Results

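The mouse Hox genes were examined in tissue, organoids and tumors of the oviduct and of the ovarian surface epithelium (OSE). Members were the rows of the count table whose symbol is Hox followed by a cluster letter and a number, without the opposite-strand transcripts, and 32 of the 18305 genes met this rule. HoxA and HoxB had 9 members each, and HoxC and HoxD had 7 each. Of the 39 protein-coding Hox genes in GENCODE vM21 (GRCm38), 7 were not analysed here. The paper describes pronase treatment of ovaries for deriving OSE organoids, and does not state it for the OSE tissue libraries. From wild-type C57BL/6 mice came 11 of the 27 libraries. They were 3 each of oviduct and of OSE, both labelled bulk tissue, 3 of organoids grown from oviduct and 2 of organoids grown from OSE. A further 3 were oviductal organoids, called Cas9-GFP organoids, of mice that carry Cas9 and EGFP at Gt(ROSA)26Sor under the ubiquitous CAG promoter. From such organoids came 3 libraries of TBP clones. These are single clones with sgRNA-induced mutations, among them in Trp53 and Brca1, picked under Nutlin-3a, and also carry the Cas9-GFP allele. The paper states that each mutation combination was represented by 2 independent clones, so the 3 libraries may not stand for 3 separate clones. It describes the tumor organoid lines as derived from the same original TBP clone. TBP clones transplanted into female NSG mice, 8 to 12 weeks old, gave 6 TBP tumors and 4 tumor organoid lines, of which T2-epi and T4-epi are called epi, and T1-mes and T3-mes are called mes. Per the paper the sequenced tumors grew subcutaneously, and each mouse received 2 injections of the same clone, so that tumors may share a mouse. The tumor organoid lines were derived and grown with Nutlin-3a to select for tumor-derived cells. Tissue and organoids were taken from female mice 8 to 12 weeks old. Host cells in the tumors are also mouse cells, so that their reads cannot be told apart from those of the graft, and the mes lines grew as a mixture of epithelial organoids and fibroblast-like cells.

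Hox genes encode homeodomain transcription factors that give cells along the body axis their position. They lie in clusters, and within each cluster the genes with low paralog numbers are used further towards the head and those with high numbers further towards the tail. In the reproductive tract, posterior Hoxa genes pattern the Müllerian duct, which forms the oviduct and uterus, while the OSE derives from the coelomic epithelium over the gonad. Adult cells often keep the Hox pattern of the place they came from. Polycomb complexes keep unused Hox genes silent, and TALE proteins such as PBX and MEIS bind DNA together with HOX proteins.

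The clusters lie in GRCm38 on chromosome 6 (HoxA, members from 52155590 to 52240854), chromosome 11 (HoxB, 96194316 to 96354012), chromosome 15 (HoxC, 102921103 to 103036852) and chromosome 2 (HoxD, 74679557 to 74765142). The gene models of 11 members overlap another member on the same strand, in 8 pairs, among them Hoxc5 with Hoxc6 and Hoxc8, Hoxa3 with Hoxa5, and Hoxd3 with Hoxd4, so that the counts of these genes are uncertain where the counting had to choose between them. RefSeq promoter sequences (GRCm38.p6) matched 17 members, and those of the other 15 were not analysed here. The 250 bases upstream of the start are shown for the members called between oviduct and OSE tissue with the largest changes, up to 3 in each direction, among those with a matched sequence, which gave 1 gene of each cluster. They are Hoxa5 (chr6:52204588-52204837, minus strand), Hoxb4 (chr11:96318017-96318266, plus strand), Hoxc4 (chr15:103034145-103034394, plus strand) and Hoxd9 (chr2:74697513-74697762, plus strand), with capitals marking each CG dinucleotide, the site of DNA methylation.
Hoxa5 promoter: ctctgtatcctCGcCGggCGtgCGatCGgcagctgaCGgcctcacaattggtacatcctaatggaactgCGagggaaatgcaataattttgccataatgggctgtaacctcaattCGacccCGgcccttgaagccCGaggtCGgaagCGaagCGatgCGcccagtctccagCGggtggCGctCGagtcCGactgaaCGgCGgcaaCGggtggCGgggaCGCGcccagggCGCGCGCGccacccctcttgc
Hoxb4 promoter: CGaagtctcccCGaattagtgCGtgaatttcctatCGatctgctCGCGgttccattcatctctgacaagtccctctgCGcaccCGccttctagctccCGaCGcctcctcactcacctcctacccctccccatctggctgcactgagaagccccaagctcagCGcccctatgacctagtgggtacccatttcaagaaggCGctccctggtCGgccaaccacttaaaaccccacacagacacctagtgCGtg
Hoxc4 promoter: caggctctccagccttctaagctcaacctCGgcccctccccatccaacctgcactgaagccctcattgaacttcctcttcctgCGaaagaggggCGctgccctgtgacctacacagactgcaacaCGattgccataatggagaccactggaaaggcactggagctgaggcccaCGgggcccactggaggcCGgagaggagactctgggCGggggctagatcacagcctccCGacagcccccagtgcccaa
Hoxd9 promoter: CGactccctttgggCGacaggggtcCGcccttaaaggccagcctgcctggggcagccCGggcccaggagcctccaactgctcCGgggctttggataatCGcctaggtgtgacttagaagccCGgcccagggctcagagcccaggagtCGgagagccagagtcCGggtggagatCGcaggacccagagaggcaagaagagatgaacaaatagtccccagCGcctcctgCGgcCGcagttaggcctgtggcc
They held 28, 14, 8 and 13 CG dinucleotides in this order. Over all 19 promoters of members the median was 12.0, against 6.0 over 32851 promoters of the same length. The letters TGATTNAT, a PBX-HOX motif, were found on either strand in 2 of the 19, against 2.82% of all promoters, TGACAG, a MEIS motif, in 2 against 15.9%, and TAATTA, a homeodomain motif, in 2 against 4.84%. None of these motifs was found in the 4 windows shown.

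Levels are given as raw read counts or as CPM, which are counts scaled to a common library size with TMM factors over all 27 libraries. CEL-Seq2 reads only the 3′ end of a transcript, and CPM of different genes were therefore not ranked against each other. Libraries held 82239 (TBP clone 1) to 4531767 counts (TBP clone 3). In TBP clone 1, 3 counts correspond to 33.5 CPM, against 0.684 to 5.18 CPM in the other 26 libraries. Where a group had no count, its level was taken as up to 3 counts over the group. Reads at the 3′ ends do not show edits in promoter-proximal exons, and the labels of the TBP clones were not checked in this way. The summed CPM of 7 oviduct epithelium markers was 73985 to 115700 in oviduct tissue and 17137 to 24881 in oviductal organoids, but 1677 to 1927 in Cas9-GFP organoids, in which the secretory marker Pax8 was at 140 to 181 CPM and Pax2 was at 0. OSE tissue held markers of other ovarian cells, with sums of 3615 to 4486 CPM for granulosa cells, 6156 to 7535 CPM for steroidogenic cells and 512 to 672 CPM for oocytes. Oviduct tissue held smooth muscle markers at 5573 to 6991 CPM against 515 to 744 CPM in OSE tissue. The libraries of oviduct tissue, OSE tissue, oviductal organoids, OSE organoids, TBP clones and TBP tumors each enter more than 1 comparison. Those comparisons are therefore not independent. In bulk RNA, fewer cells of a type and less RNA per cell cannot be told apart.

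**Figure D1:**
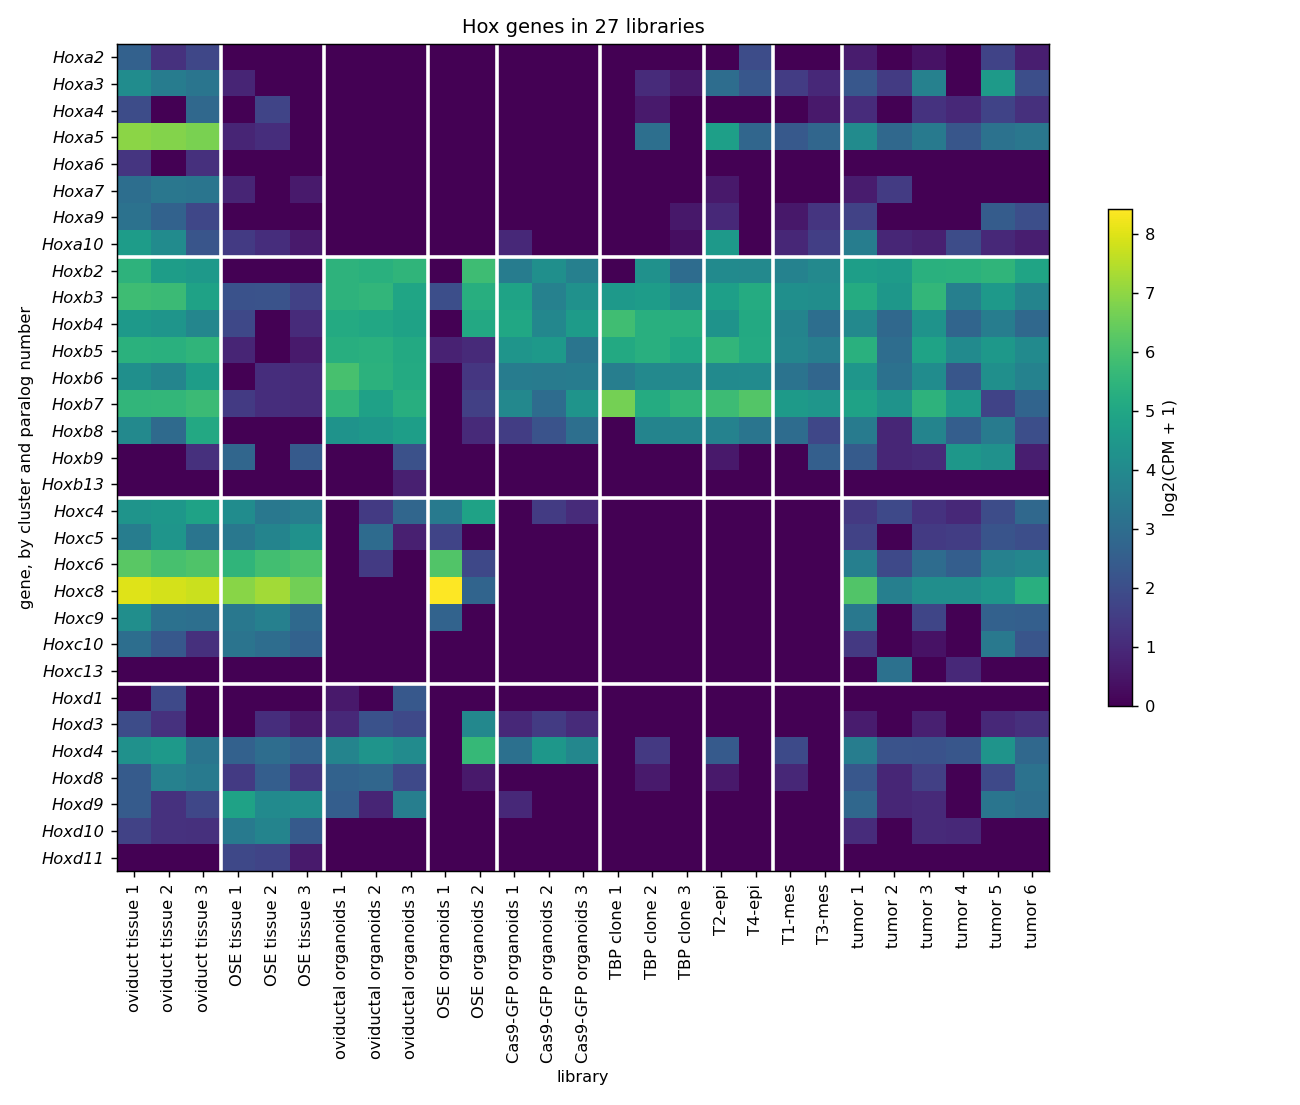
Level of 31 Hox genes (rows, by cluster and paralog number) in the 27 libraries (columns, by group), coloured by log2(CPM + 1), with white lines between clusters and groups. Hoxb2 to Hoxb8 are filled in all oviduct-derived groups, HoxC rows are filled in both tissues and in the tumors but have 24 counts in all 13 oviduct-derived cultures together.

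Bulk libraries of oviduct and OSE tissue, named for the 2 candidate origins of the cancer modelled here, carried different Hox patterns. HoxA and HoxB were expressed in oviduct tissue and were near 0 in OSE tissue, HoxC was expressed in both, and Hoxd9 and Hoxd10 were higher in every OSE library. Summed over the cluster, HoxA was at 162.5 ± 26.2 CPM in oviduct tissue and at 3.32 ± 1.97 CPM in OSE tissue (mean ± SD, n = 3 each), and HoxB at 219.5 ± 17.3 against 10.1 ± 4.28 CPM. HoxC was at 354 ± 28.8 against 220.0 ± 26.3 CPM and HoxD at 31.6 ± 9.40 against 39.7 ± 9.81 CPM. Of the 32 members 13 passed the filter on low counts, of which edgeR's quasi-likelihood test called 9 higher and 1 lower in the oviduct at an adjusted p under 0.05. Of all 8787 genes tested, 26.9% were called higher and 24.3% lower. The median log2 fold change was 3.80 over the 13 members tested and 0.00 over all genes (0.0017). Hoxa5 and Hoxb2 to Hoxb7 had at most 4 reads in an OSE library and passed the filter only through their oviduct reads. The counts and the median therefore describe the members that passed and are no test of the family.

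Hoxa5, a central HoxA gene, had 169, 88 and 85 reads in the oviduct libraries and 1, 1 and 0 in the OSE libraries. The groups did not overlap, and the pooled ratio was 227 with a 95% counting interval of 62.4 to 1882 (adjusted p = 1.34e-09, edgeR). Intervals and limits of this kind cover counting error only. Hoxa3 had 22, 8 and 7 reads against 1, 0 and 0, and Hoxa10, a patterning gene of the Müllerian duct, had 33, 12 and 3 against 2, 1 and 1. Hoxa9 had 17 reads in the oviduct and 0 in the OSE over all libraries, and Hoxa7 had 24 against 2. All of these were too low for the filter and were not tested in the main fit, although their CPM did not overlap either. DESeq2 called each higher in the oviduct, with adjusted p of 0.00047 (Hoxa3), 0.00697 (Hoxa7), 0.00557 (Hoxa9) and 0.000819 (Hoxa10).

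The HoxB genes from Hoxb2 to Hoxb8 were read in every oviduct library. Hoxb2 had 58, 19 and 18 reads in the oviduct and 0 in each OSE library, which made it at least 42.0-fold higher (adjusted p = 1.73e-06). Hoxb3 had 76, 40 and 23 reads against 4, 3 and 4, a log2 fold change of 4.00 ± 0.40 (SE, adjusted p = 8.53e-07). All 6 tested HoxB genes, which passed the filter only through their oviduct reads, were called higher in the oviduct. No HoxB gene was called lower. Hoxb4 stood at 3.80 ± 0.51, and Hoxb7, with 63, 35 and 43 reads against 2, 1 and 2, at 5.14 ± 0.37. For Hoxb5 (122 against 2 reads in all) the pooled ratio was 81.0 with an interval of 21.9 to 676, and for Hoxb6 (54 against 3) 23.9 with an interval of 7.75 to 120. Hoxb8 had 20, 5 and 27 reads against 0, 0 and 0, at least 23.0-fold, and was not tested in the main fit. DESeq2 called it higher in the oviduct (adjusted p = 3.1e-06). Hoxb9, the next gene of the cluster, went the other way with 0, 0 and 1 reads in the oviduct and 7, 0 and 8 in the OSE, below the filter and with overlapping libraries.

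HoxC genes were read in both tissues. Hoxc8, which patterns the trunk, had 350, 179 and 176 reads in the oviduct and 141, 131 and 183 in the OSE. In CPM this was 215 to 254 against 97.1 to 153, without overlap, a log2 fold change of 0.98 ± 0.18 (adjusted p = 0.000401). Hoxc4 differed by 0.90 ± 0.31 (adjusted p = 0.0241), and its call was lost without oviduct tissue 3, OSE tissue 2 or OSE tissue 3 (adjusted p of 0.0828 to 0.118) and with DESeq2 (0.139). Hoxc6 had 105, 47 and 55 against 52, 49 and 123 reads and did not pass the test (0.33 ± 0.19, adjusted p = 0.172), nor did Hoxc5 or Hoxc9 (adjusted p = 0.819 and 0.367). With one estimate of spread over all 27 libraries, the calls of Hoxc4 and Hoxc8 were also lost (adjusted p = 0.384 and 0.453).

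In HoxD, the posterior genes Hoxd9 and Hoxd10 lay higher in the OSE. Hoxd9 had 6, 1 and 2 reads in the oviduct and 33, 13 and 31 in the OSE, a log2 fold change of -2.65 ± 0.46 (adjusted p = 0.000202) without overlap, and its call was lost in the fit to all 27 libraries (adjusted p = 0.0574). Hoxd10, below the filter, had 3, 1 and 1 against 12, 11 and 8 reads, again without overlap. Hoxd11 had 0 reads in the oviduct and 3, 2 and 1 in the OSE. Hoxd4, an anterior neighbour, had 25, 17 and 7 against 6, 6 and 10 reads. Over the 27 members with more than 3 counts in any of the 6 libraries, 17 were higher in every oviduct library than in every OSE library and 2 were lower, against 27.8% and 25.4% of the 13345 genes over this limit.

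**Figure D2:**
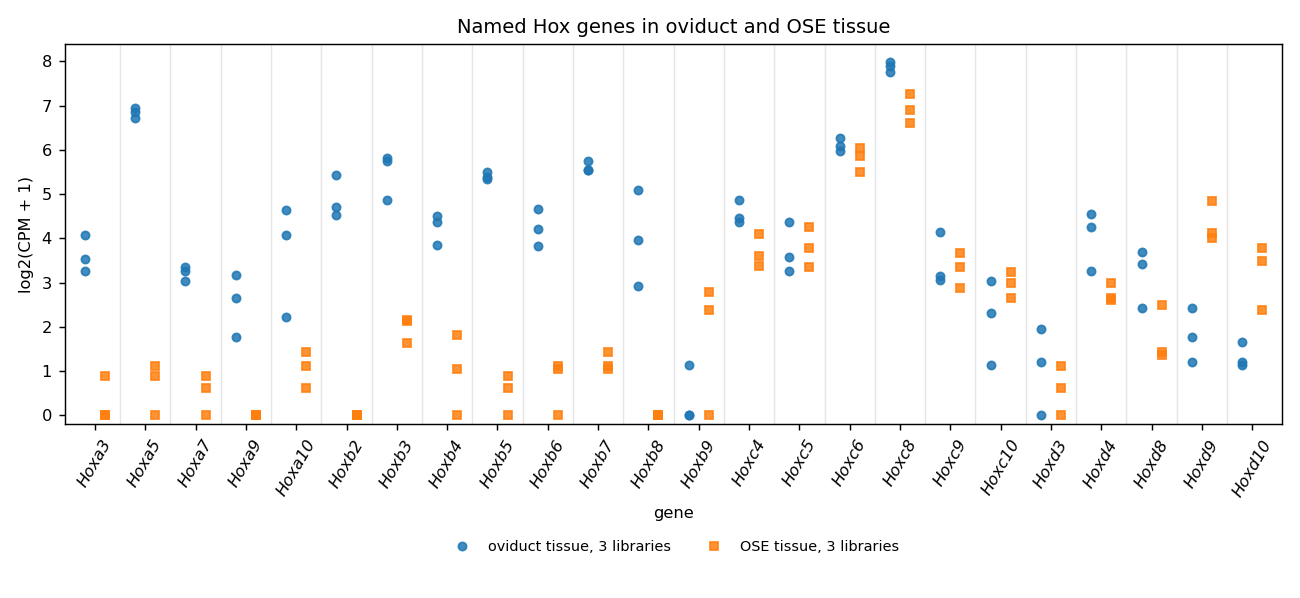
Level (log2(CPM + 1)) of 24 named Hox genes in the 3 libraries of oviduct tissue (circles) and the 3 of OSE tissue (squares), one point per library. HoxA and HoxB from Hoxb2 to Hoxb8 separate the tissues, HoxC lies close in both, and Hoxd9 and Hoxd10 lie higher in OSE tissue.

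Of 26 tested genes on 3 lists of Hox cofactors and regulators 16 were called between the tissues, where 51.2% of all genes were called, so that nothing particular to these lists is read from the count. Of the TALE cofactors 6 of 9 were tested, and 3 were called higher in the oviduct, among them Meis1 (3.17 ± 0.27) and Meis2 (2.17 ± 0.20), and Pknox2 (-0.64 ± 0.25) was called lower. Meis1 lay at 78.9 to 137 CPM in the oviduct and at 7.62 to 15.4 CPM in the OSE. Of 12 tested Polycomb and trithorax genes, which silence or activate Hox clusters, 7 were called lower in the oviduct, among them Ezh2 (-1.90 ± 0.31), a histone methyltransferase, and Cbx2 (-2.53 ± 0.48), which binds its mark. Of 8 tested genes of retinoic acid, a signal that activates Hox genes, 5 were called lower, among them the synthesis enzymes Aldh1a1 (-3.28 ± 0.20) and Aldh1a2 (-2.31 ± 0.20) and the binding protein Crabp2 (-4.36 ± 0.33). The granulosa, steroidogenic, oocyte and smooth muscle sums moved with the same contrast, and their part in these results was not tested.

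Oviductal organoids, which hold the epithelium only, held HoxB and Hoxd4 and had no reads of HoxA. The HoxB sum was 255.5 ± 24.6 CPM against 219.5 ± 17.3 in the tissue (mean ± SD, n = 3 each), while HoxA was at 0 and HoxC at 5.57 ± 5.15 CPM. Of 15 members tested against oviduct tissue 1 was called higher and 7 lower (edgeR), where 18.7% of all genes were called higher and 24.2% lower. Hoxc8 had 0 reads in each of the 3 lines, at least 382-fold below the 350, 179 and 176 reads of the tissue (adjusted p = 9.30e-08). Hoxa5 also had 0 reads in each line, at least 185-fold below (adjusted p = 3.04e-07), and Hoxa3 at least 20.0-fold below (adjusted p = 0.000128). Of the 27 members with over 3 counts in a library, 14 were lower in every line than in every tissue library and 2 were higher, against 28.3% and 21.6% of all such genes. The 9 HoxA members were at 0 in all 3 lines, at a depth at which 3 counts correspond to 1.43 to 2.54 CPM.

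Hoxc6, with 0, 2 and 0 reads in the organoids against 105, 47 and 55, fell by a pooled ratio of 168 (95% counting interval 46.0 to 1398, adjusted p = 1.46e-06), and Hoxc9 was at 0. Hoxc4 fell by 3.23 ± 0.68 (log2) and kept 0, 2 and 9 reads. Hoxc5 kept 0, 8 and 1 reads (-2.64 ± 0.83, adjusted p = 0.022), and its call was lost without oviduct tissue 1 or 2 or oviductal organoids 3 (adjusted p of 0.0531 to 0.102). In HoxB, Hoxb6 rose, with 128, 49 and 52 reads in the organoids against 24, 10 and 20 (1.30 ± 0.32, adjusted p = 0.00554), without overlap in CPM. The other 6 tested HoxB genes did not pass, with log2 fold changes of -0.39 (Hoxb7) to 0.74 (Hoxb4, adjusted p = 0.0552). Hoxd4 had 27, 23 and 24 reads, with a difference from the tissue of -0.07 ± 0.38. The sums of 7 fibroblast markers (3816 to 7028 CPM in tissue, 0 to 5.08 in organoids) and of 6 smooth muscle markers (5573 to 6991 against 0.656 to 6.68) moved with HoxA and HoxC, and their part in the result was not tested.

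The pair of OSE organoid lines held different Hox clusters and are given one by one. The paper left another OSE organoid line out of its analysis because of contamination. Contamination of the lines given here was not tested. Line 1 had HoxC reads and hardly any others, with 446 of Hoxc8, 91 of Hoxc6, 13 of Hoxc4 and 7 of Hoxc9, and 560 of its 565 Hox reads (99.1%) came from HoxC. It had 0 reads of all HoxA and HoxD genes, and its HoxB reads were 4 of Hoxb3 and 1 of Hoxb5. Line 2 had 107 reads of Hoxb2, 75 of Hoxb3, 64 of Hoxb4, 96 of Hoxd4, 28 of Hoxd3 and 55 of Hoxc4, but 11 of Hoxc8.

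Line 2 thus carried the anterior end of HoxB at the level of oviductal organoids but not its centre. Hoxb2 stood at 54.2 CPM against 39.8 to 44.6 CPM in the oviductal lines, and Hoxb4 at 32.4 against 27.6 to 34.3 CPM. Hoxb5 stood at 1.01 against 33.5 to 39.8 CPM, and Hoxb6, Hoxb7 and Hoxb8 at 1.52, 2.03 and 1.01 CPM. Between the OSE lines, Hoxb2 was at least 23.7-fold and Hoxd4 at least 21.2-fold higher in line 2, while Hoxc8 was 61.1 times (interval 33.8 to 123) and Hoxc6 27.4 times (11.3 to 86.5) higher in line 1. These are 2 libraries, and the intervals hold no spread between lines. Oviduct markers also differed between the lines, with Ovgp1, the oviductal glycoprotein, at 19.1 CPM in line 1 and 3243 CPM in line 2 against 14636 to 22938 CPM in oviductal organoids, and Pax8 at 43.5 and 180 CPM. Msln, a mesothelial marker, was at 2030 CPM in line 1 and 409 CPM in line 2. The part of these marker levels in the Hox levels was not tested.

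**Figure D3:**
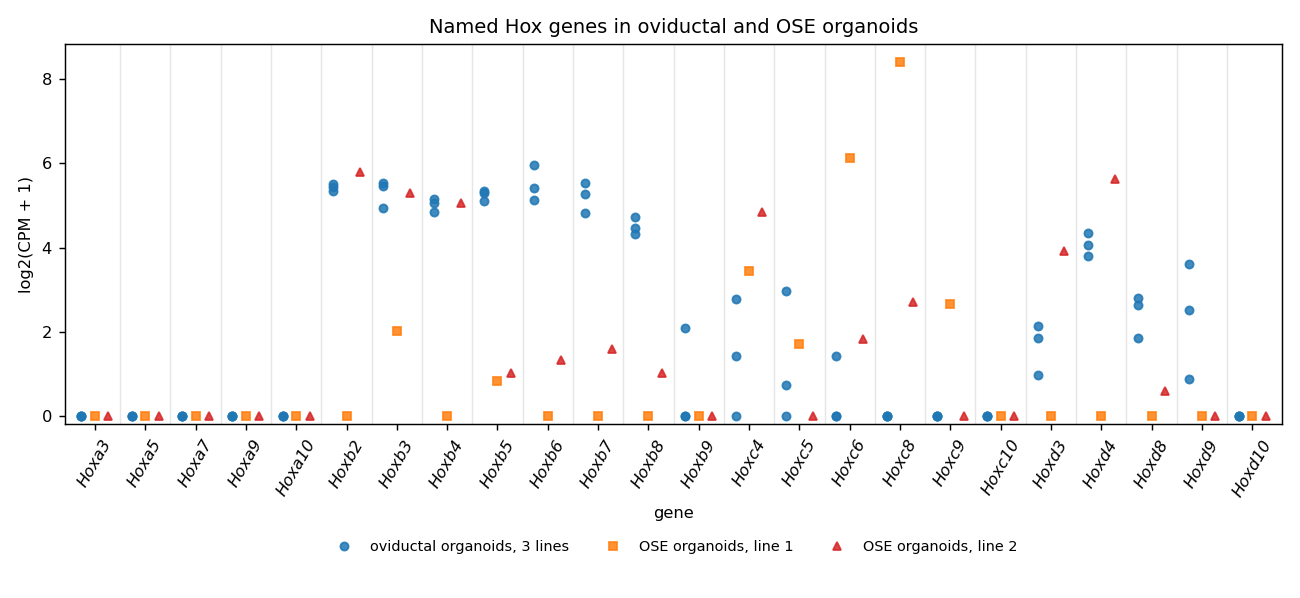
Level (log2(CPM + 1)) of 24 named Hox genes in the 3 oviductal organoid lines (circles), OSE organoid line 1 (square) and line 2 (triangle), one point per library. Line 1 holds HoxC, line 2 holds Hoxb2 to Hoxb4, Hoxc4, Hoxd3 and Hoxd4, and neither reaches the oviductal lines in Hoxb5 to Hoxb8.

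With both OSE lines in the fit, 1 of 9 members tested was called between oviductal and OSE organoids and none in the other direction, where 0.0864% of all genes were called higher and 0% lower. At an unadjusted p under 0.05 edgeR had 5 members. DESeq2 called 4 of 14 members tested, namely Hoxb5 to Hoxb8, each higher in oviductal organoids. Of 10806 genes it called 179 higher and 90 lower. The called gene was Hoxb5, with 80, 47 and 51 reads against 1 and 2, a pooled ratio of 40.6 (interval 13.7 to 199, adjusted p = 0.0264). Its neighbours Hoxb6 (128, 49 and 52 against 0 and 3), Hoxb7 (95, 32 and 57 against 0 and 4) and Hoxb8 (40, 25 and 39 against 0 and 2) did not overlap between groups and did not pass (adjusted p = 0.0825, 0.106 and 0.106). Of 18 members with over 3 counts in a line, 6 were higher in every oviductal line than in both OSE lines and 3 were lower, against 15.7% and 13.1% of all such genes. Hoxb5 lost its call without any one of the 3 oviductal lines (adjusted p of 0.139 to 0.343).

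The differences depended on which OSE line was kept. Without line 2, fitted log2 fold changes were 9.03 for Hoxb2, 8.60 for Hoxb4 and 7.62 for Hoxd4, each without reads in line 1, and -7.07 for Hoxc6. Without line 1, they were 4.85 for Hoxb6, 4.14 for Hoxb7 and 4.34 for Hoxb8. A lone OSE line was then taken to vary as the oviductal lines do. Hoxb2, Hoxb3, Hoxb4 and Hoxd4 overlapped between the origins through line 2. Hoxc8 had 0 reads in 3 oviductal lines against 446 in OSE line 1 and 11 in line 2, and did not pass the filter on low counts. Pooled over both OSE lines it was at least 223-fold higher, a limit set mainly by line 1. That line lay at 340 CPM and line 2 at 5.57 CPM.

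Against OSE tissue, both OSE organoid lines had no reads of Hoxd9 or Hoxd10, and Hoxc8 was above the tissue in line 1 and below it in line 2. Of 9 members tested edgeR called none higher and 4 lower, where 14.5% of all genes were called higher and 18.6% lower. DESeq2 called 0 higher and 4 lower of 17 members tested. Of 12861 genes it called 1360 higher and 1979 lower. Hoxd9 had 33, 13 and 31 reads in the tissue and 0 in both lines, at least 21.5-fold lower (adjusted p = 0.00317), and Hoxd10 had 12, 11 and 8 against 0 and 0, at least 8.65-fold lower (adjusted p = 0.0136). Hoxc10 had 10, 6 and 10 against 0 and 0 (at least 7.25-fold lower, adjusted p = 0.00814). Hoxc5 had 11, 11 and 34 against 3 and 0, a pooled ratio of 15.6 (interval 5.08 to 78.0, adjusted p = 0.0216), and lost its call without any one of the OSE tissue libraries (adjusted p of 0.0629 to 0.0866). No member with a positive change had an unadjusted p under 0.05. Of 16 members with over 3 counts in a library, 6 were lower in both lines than in every tissue library and 0 higher, against 32.5% and 23.7% of all such genes. Hoxc8 lay at 340 CPM in line 1 and 5.57 CPM in line 2, against 97.1 to 153 CPM in the tissue. Its log2 fold change was -4.36 without line 1 and 1.49 without line 2. Hoxb2 had 107 reads, all in line 2, against 0 in the tissue, at least 42.6-fold higher over the group. It was called higher without the filter on low counts (adjusted p = 0.0293), as was Hoxb3 (0.0403), and with all 27 libraries Hoxb2 (0.000434), Hoxb3 (0.00551) and Hoxb4 (0.0068) were. Without OSE line 1, fitted log2 fold changes were, among others, 3.78 for Hoxb3, 4.65 for Hoxb4 and -4.36 for Hoxc6. Without OSE tissue 1, 1 of 7 members tested was called lower, where 1171 of all 9928 genes were. Without OSE tissue 2 it was also 1 of 7, where 1198 of 9996 genes were.

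The interaction term asked whether the difference between oviduct and OSE was the same in organoids as in tissue. Of 21 members tested, 1 was called higher and 3 lower (edgeR), where 5% of all genes were called higher and 6.68% lower. Hoxc8, at 2.06 times the OSE level in oviduct tissue (counting interval 1.82 to 2.32), was at 0 in oviductal organoids and at 340 and 5.57 CPM in OSE organoids (adjusted p = 0.00791). Hoxc6 followed with 0, 2 and 0 reads against 91 and 5 (adjusted p = 0.0168) and Hoxc4 with 0, 2 and 9 against 13 and 55 (coefficient -3.81, adjusted p = 0.0286). Hoxd9 was the one in the other direction, lower in oviduct than in OSE tissue but with 10, 1 and 17 reads in oviductal and none in OSE organoids (adjusted p = 0.00602). Hoxc6 lost its call without OSE line 1 (adjusted p = 0.106), or without oviductal organoids 1 or 3 (0.0539 and 0.0516), and Hoxc4 without OSE line 2 (0.0565), oviductal organoids 2 (0.0639) or any one of the 6 tissue libraries (0.0523 to 0.0766). For Hoxa5 and the other members without reads in any of these organoid lines, the reads do not determine an interaction. DESeq2 nevertheless called Hoxa5 (coefficient -7.75, adjusted p = 0.00604). This value rests on organoid groups without reads and is not the size of an effect. Of the cofactors and regulators, Meis1 (-2.52 ± 0.58), Meis2 (-1.58 ± 0.34) and Aldh1a2 were called lower and Aldh1a1 and Crabp2 higher.

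**Figure D4:**
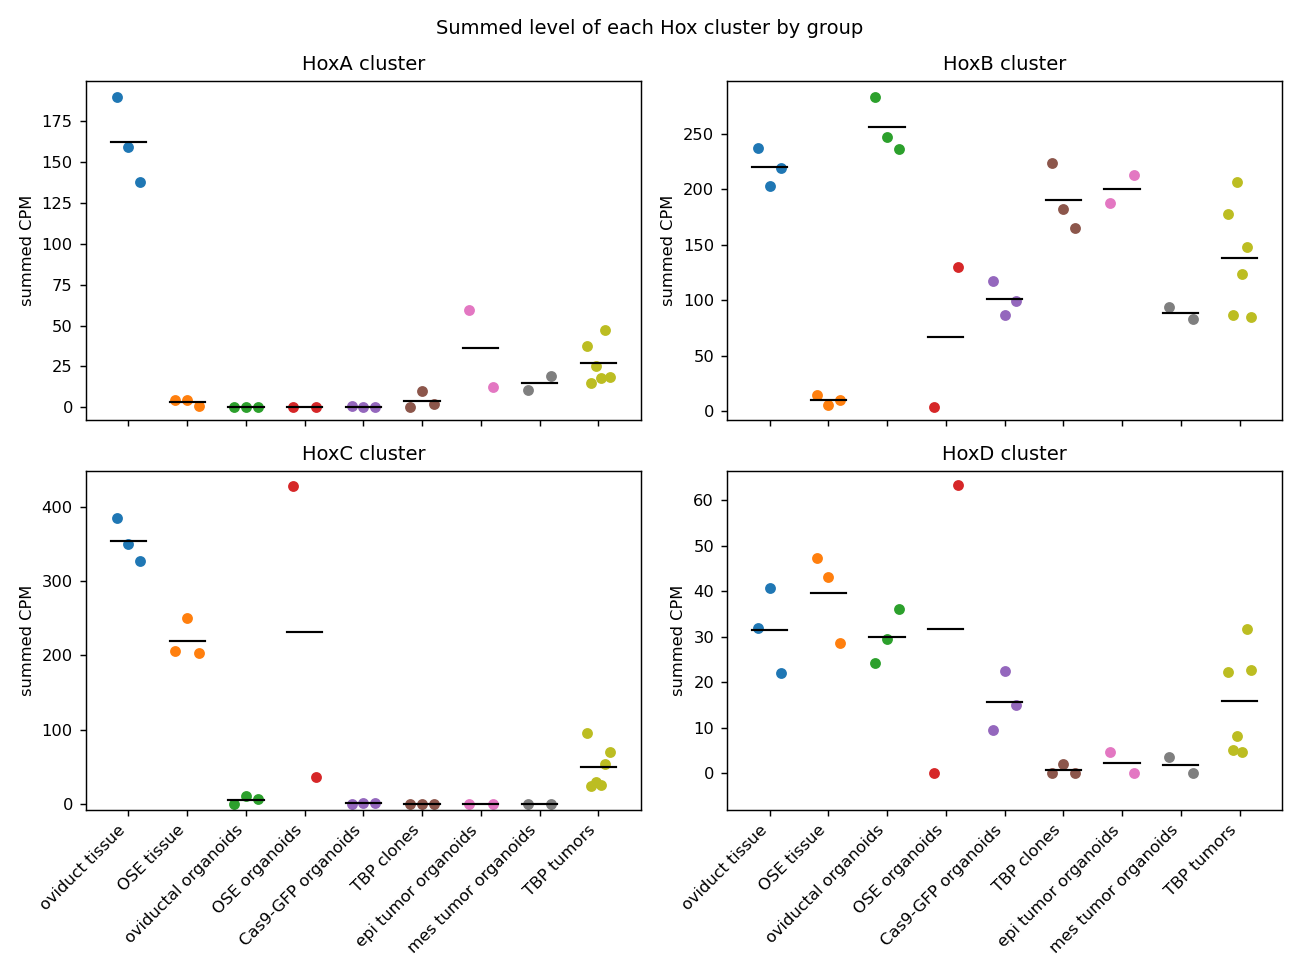
Summed CPM of each Hox cluster by group, one point per library, with a bar at the group mean. HoxA is at 138 to 190 CPM in oviduct tissue and at most 59.4 CPM in any other library, HoxB is low in OSE tissue and in OSE organoid line 1, HoxC is at or near 0 in oviduct-derived cultures, and the 2 OSE organoid lines lie far apart for HoxB, HoxC and HoxD.

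Cas9-GFP organoids, the parents of the mutant clones, had HoxB at 86.3 to 118 CPM, Hoxd4 at 8, 12 and 13 reads, and 2 HoxC reads in the 3 lines together. TBP clones carried HoxB and no HoxC. Of the 6 members tested between clones and Cas9-GFP organoids edgeR called none, against 0.817% of all genes (0.389% higher and 0.428% lower). At an unadjusted p under 0.05 there were 2, and DESeq2 called 0. Hoxb7 had 9, 66 and 196 reads in the clones and 15, 4 and 18 in the Cas9-GFP organoids, which in CPM did not overlap (35.4 to 101 against 6.91 to 19.2 CPM, log2 fold change 1.82 ± 0.52, adjusted p = 0.184). Hoxb5 stood at 31.0 to 38.6 against 8.55 to 22.4 CPM (adjusted p = 0.470), also without overlap. Of 9 members with over 3 counts in a library, 4 were higher in every clone and 1 lower, against 5.33% and 9.93% of all such genes. Without TBP clone 2, Hoxd4 was called lower in the clones (adjusted p = 0.0189), and without the filter on low counts Hoxd4 (0.00141) and Hoxb7 (0.0162) were called. Hoxd4, not tested, had 0, 3 and 0 reads in the clones, a pooled ratio of 27.2 (interval 8.54 to 139) below the Cas9-GFP organoids. TBP clone 1, with 20 Hox reads, bears little on any single gene.

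In the 4 tumor organoid lines HoxB was read from Hoxb2 to Hoxb8 in every line, and all 7 HoxC members had 0 reads in every line. Over the 10 libraries of Cas9-GFP organoids, clones and tumor organoids, with 17409897 counts in all, HoxC had 2 reads. HoxA reads were present in all 4 tumor organoid lines, with a sum of 10.5 to 59.4 CPM against 0 to 9.64 CPM in the clones, a difference that was not tested. Hoxa5 had 9 reads in T1-mes, 55 in T2-epi, 12 in T3-mes and 12 in T4-epi. T2-epi stood apart with 47 reads of Hoxa10, where the other lines had 2, 4 and 0.

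Of 8 members tested between mes and epi lines none was called (edgeR), against 1.13% of all genes (1% higher and 0.123% lower in mes). At an unadjusted p under 0.05 there were 3, Hoxb4, Hoxb5 and Hoxb7, and DESeq2 called 0. Hoxb5 lay at 13.7 and 11.2 CPM in the mes lines and at 45.6 and 34.5 CPM in the epi lines (-1.68 ± 0.43, adjusted p = 0.151). Hoxb7 lay at 23.2 and 20.4 against 53.7 and 70.4 CPM (-1.50 ± 0.39, adjusted p = 0.155). Of 14 members with over 3 counts in a line, 9 were lower in both mes lines than in both epi lines and 1 higher, against 22.1% and 24.3% of all 12305 such genes. Fibroblast markers summed to 3126 and 7546 CPM in the mes lines and to 31.3 and 102 CPM in the epi lines, and Pax8 was at 157 and 6.79 against 183 and 175 CPM. Their part in the HoxB levels was not tested.

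TBP tumors held HoxB together with HoxC, and less of both HoxA and HoxC than oviduct tissue. Hoxc8 had 127, 13, 50, 18, 64 and 63 reads in tumors 1 to 6, with a lowest, median and highest level of 11.4, 18.8 and 69.3 CPM. No clone had a read, so that tumors were at least 60.4-fold higher (adjusted p = 0.0017), and every tumor was below every oviduct tissue library (215 to 254 CPM, log2 fold change -3.05 ± 0.47, adjusted p = 0.00059). Hoxc6 had 21, 3, 20, 5, 37 and 22 reads in the tumors, at least 19.5-fold above the clones (adjusted p = 0.00249), and lay at 2.62 to 13.5 CPM against 61.8 to 76.2 CPM in oviduct tissue (-3.00 ± 0.37, adjusted p = 0.000172).

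Of 12 members tested between tumors and clones, 5 were called higher and 1 lower (edgeR), where 20.1% of all genes were called higher and 11.7% lower. Of 25 members with over 3 counts in a library, 7 were higher in every tumor than in every clone and 1 lower, against 20.9% and 7.69% of all such genes. Hoxb4 fell, with 5.68 to 19.0 CPM in the tumors (median 8.56) and 38.6 to 55.9 CPM in the clones, without overlap (-1.97 ± 0.43, adjusted p = 0.00546). Hoxb2 rose from 0 to 18.2 CPM in the clones to 23.6 to 44.9 CPM (1.57 ± 0.49, adjusted p = 0.031), where the 0 is that of the shallow TBP clone 1. Hoxd4 rose by a pooled ratio of 19.5 (interval 6.49 to 96.0, adjusted p = 0.0327), and Hoxd9 was at least 9.74-fold higher (adjusted p = 0.0378) while its groups overlapped. The calls of Hoxb2, Hoxd4 and Hoxd9 were lost without TBP clone 3 (adjusted p = 0.152, 0.166 and 0.167), which left 3 called members, as did leaving out tumor 5. Hoxb2 was also lost without tumor 4 or 5 (0.0539 and 0.0535), Hoxd4 without TBP clone 1 (0.0569) and Hoxd9 without TBP clone 2 (0.108).

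Against oviduct tissue, the tissue of origin, 18 members were tested in the tumors, of which edgeR called none higher and 6 lower, where 46.1% of all genes were called (23.7% higher and 22.4% lower). DESeq2 called 1 higher (Hoxb9, adjusted p = 0.0321) and 7 lower of 28 members tested. Of 14106 genes it called 2602 higher and 2897 lower. In edgeR no member with a positive change had an unadjusted p under 0.05. Of 27 members with over 3 counts in a library, 7 were lower in every tumor than in every tissue library and 0 higher, against 20.2% and 19.1% of all such genes. Hoxa5 had 29, 7, 29, 4, 25 and 15 reads in the tumors, at 3.78 to 15.8 CPM, and every tumor was below the 104 to 123 CPM of the tissue (-3.69 ± 0.31, adjusted p = 2.35e-05). Hoxc4 (-3.14 ± 0.45) and Hoxc5 (-2.56 ± 0.54) fell as well. Hoxa10 fell with overlapping groups (-2.43 ± 0.87, adjusted p = 0.0421), a call lost without oviduct tissue 1 or 2 or any one of tumors 2 to 6 (adjusted p of 0.0588 to 0.230). In the main edgeR fit no HoxB gene was called, with log2 fold changes of -1.30 (Hoxb7) to 0.14 (Hoxb2). Without tumor 3, edgeR called Hoxb3 (-1.18), Hoxb4 (-1.08) and Hoxb7 (-1.74) lower in the tumors (adjusted p = 0.0268, 0.0398 and 0.0435). It called Hoxb5 lower without tumor 1 (adjusted p = 0.0236) and with all 27 libraries (0.0306). A p above the threshold does not show that HoxB levels were alike, and Hoxb7 ranged from 2.26 CPM in tumor 5 to 42.3 CPM in tumor 3.

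The tumors varied among themselves. Hoxb9, at 0 in all clones, had 8, 1, 3, 22, 56 and 1 reads, and reached 20.8 CPM in tumor 4 and 18.1 CPM in tumor 5. Hoxa3 had 71 reads in tumor 5 and 35 in tumor 3, but 0 in tumor 4. Hoxc13, the most posterior member of the HoxC genes here, had 9 reads in tumor 2 and 1 in tumor 4, and 0 in the other 25 libraries. Fibroblast markers summed to 9662 to 57045 CPM in the tumors and to 0.456 to 22.3 CPM in the clones, and myeloid markers to 403 to 2047 CPM. Tumor 4, with the highest fibroblast sum, had 25.5 CPM of HoxC, and tumor 1, with the highest HoxC sum (95.5 CPM), had 23934 CPM. The 3 tumors with the highest HoxC sums (tumors 1, 5 and 6, 53.9 to 95.5 CPM) also had the highest smooth muscle sums (927 to 1150 CPM, against 205 to 728 CPM in the others). The part of these cells in the HoxC levels was not tested.

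**Figure D5:**
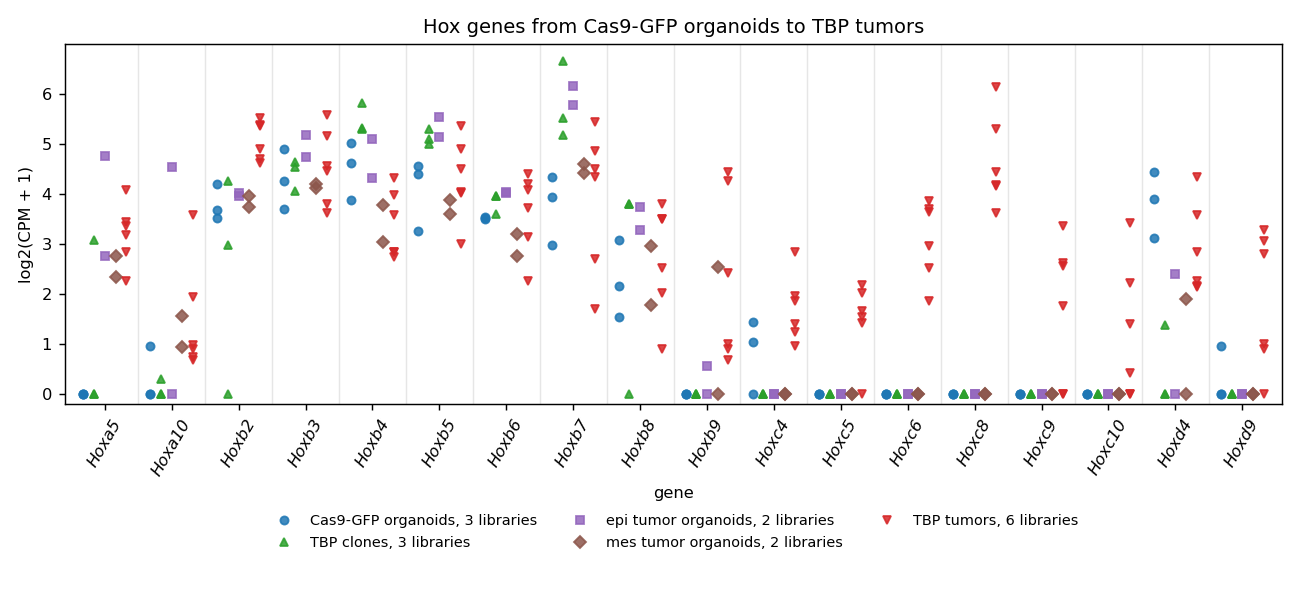
Level (log2(CPM + 1)) of HoxB (Hoxb2 to Hoxb9), HoxC (Hoxc4 to Hoxc10) and 4 other Hox genes in Cas9-GFP organoids, TBP clones, epi and mes tumor organoids and TBP tumors, one point per library. Hoxb2 to Hoxb7 have reads in every group, and Hoxc6 and Hoxc8 have reads in the 6 tumors and in none of the clones or tumor organoids.

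Of the cofactors and regulators tested, 11 of 29 were called in oviductal organoids against oviduct tissue, 8 of 31 in OSE organoids against OSE tissue, 9 of 33 in tumors against clones and 15 of 34 in tumors against oviduct tissue. Of all genes 42.9%, 33.1%, 31.8% and 46.1% were called in these comparisons, so that the lists did not stand above the background. In oviductal organoids against oviduct tissue, Meis1 (-1.22 ± 0.29), Pknox1 (-2.06 ± 0.45) and Meis2 fell and Pknox2 rose (1.06 ± 0.26), of 6 TALE cofactors tested. Of 14 Polycomb and trithorax genes, Suz12 (1.08 ± 0.22) and Pcgf2 (1.16 ± 0.19) rose and 2 fell, among them Bmi1. Of 9 retinoic acid genes, Rdh10, which makes retinal, rose by 3.27 ± 0.33, and Aldh1a2 (-5.64 ± 0.68) and Cyp26a1, which degrades retinoic acid, fell. In OSE organoids against OSE tissue no TALE cofactor of 6 was called, while Cbx7 rose and 2 genes, among them Cbx2, fell of 15 Polycomb and trithorax genes, and Cyp26b1 and Rdh10 rose and Aldh1a1, Aldh1a2 and Crabp2 fell of 10 retinoic acid genes.

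In tumors against clones, Pknox2 fell of 7 TALE cofactors (-1.88 ± 0.60), and 4 genes, among them Ezh2 (-1.09 ± 0.31), Suz12 (-2.18 ± 0.31) and Kdm6a, fell and Bmi1 rose of 15 Polycomb and trithorax genes. Of 11 retinoic acid genes Crabp1 and Cyp26b1 rose and Rxrb fell. In tumors against oviduct tissue, 1 TALE cofactor (Pbx3) rose and 4 fell of 7, 4 Polycomb and trithorax genes rose and 1 fell of 15, and 2 retinoic acid genes rose and 3 fell of 12. Over the members of these 3 lists together, edgeR called none of 28 tested in oviductal against OSE organoids (5 at an unadjusted p under 0.05), none of 23 in clones against Cas9-GFP organoids (2) and none of 33 in mes against epi lines (7), and DESeq2 was not run on them. The caudal factor Cdx2, an upstream activator of Hox genes in the embryo, had reads in T2-epi (24.7 CPM) and T4-epi (11.6 CPM) and was at 0 in all 6 tissue libraries and in tumors 2 to 6. Between mes and epi lines edgeR tested Cdx2 and did not call it (log2 fold change -2.81). Its levels in the other libraries are not given here.

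The 7 members outside the naming rule were low throughout. Hoxa2 and Hoxa4 had at most 7 reads in a library, Hoxd1 at most 6, Hoxd11 at most 3, Hoxa6 at most 2 and Hoxb13 at most 1, and Hoxc13 had the 9 reads of tumor 2. Hoxd8 had 6, 9 and 8 reads in oviduct tissue, 11, 7 and 4 in oviductal organoids and 0 in all Cas9-GFP organoids.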

How the data were processed

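RNA was sequenced by CEL-Seq2 on a NextSeq500. The authors aligned reads with BWA to GRCm38 and deposited raw read counts per gene, uniquely mapped and in the sense direction, without correction by molecular identifiers; per the labels they used DESeq2 1.18.0. RNA came from Trizol for tissues and tumors and from RNeasy columns for organoids. The labels list samples that hold 2 or 3 libraries each, and each library was counted as a replicate by its column name. The labels do not tie libraries to animals. The study's methods describe them as independent tissue samples, organoid lines and tumors, and p-values measure the spread between these libraries. For TBP clones the paper gives 2 independent clones per mutation combination. Libraries of that group may therefore share a clone, and their spread may not be that between clones. Tumors may likewise share a mouse or a clone. One spike-in entry with 1 count was left out of 18306 rows. No pair of replicates was alike within counting error: over 33 pairs the lowest chi-square per gene was 2.53.

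Groups were compared with edgeR 4.0.16 (quasi-likelihood test, TMM, filterByExpr, libraries compared only) in R 4.3.3. Two-sided tests were called at a Benjamini-Hochberg adjusted p under 0.05 over all genes tested. The SE is the log2 fold change over the square root of F. The steps were tested on simulated data. DESeq2 1.42.0, RLE size factors, no filter, all 27 libraries, a replicate block and each library left out were tried. Pooled ratios used exact binomial intervals at 95%. Named were members called in a comparison or with a group mean of at least 5 CPM, and the protein stretches planned for them are not printed. The members and lists were chosen with earlier results of these data known. Some genes of these lists are not reported here.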

Additional observations from a re-analysis of the deposited data

Results flagged for a closer look

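Among the 6 TBP tumors, 29 series of levels (named members and cluster sums) were examined for a tumor far from the others, and 2 showed one, where chance flags about 1 in 20. Hoxa10 was at 10.9 CPM in tumor 1 (20 reads) against 0.614 to 2.84 CPM in the other tumors. Hoxa7 was at 1.75 CPM in tumor 2, which is 2 reads.

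The difference between oviduct and OSE differed between organoids and tissue for 4 members by the interaction term of edgeR. The fitted log2 coefficients, organoid difference minus tissue difference, were -3.81 for Hoxc4, -6.29 for Hoxc6, -11.72 for Hoxc8 and 8.75 for Hoxd9. Those of Hoxc8 and Hoxd9 rest on a group without reads and are not sizes of an effect.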

How the results depend on the processing

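For 39 called member values, 400 of the 448 refits in which the member was fitted kept direction and call, 48 lost the call and none reversed. Refits in which a called member fell below the filter are not among the 448. Nor are they among the lost calls given above with an adjusted p. Counts of called members are given here where they moved by over 1.5 times. For oviduct against OSE tissue, 10 members became 16 with DESeq2 and 21 without a filter, and ranged from 11 to 13 leaving out 1 library. For oviductal against OSE organoids, 1 became 4 with DESeq2, 5 without a filter, 6 with all 27 libraries and 0 with a replicate block, and ranged from 0 to 10 leaving out 1 library. For oviductal organoids against oviduct tissue, 8 became 15 without a filter. For OSE organoids against OSE tissue, 4 became 7 with all 27 libraries and 1 with a replicate block, and ranged from 1 to 13 leaving out 1 library. For TBP clones against Cas9-GFP organoids, 0 became 2 without a filter, and the count ranged from 0 to 1 leaving out 1 library. For TBP tumors against TBP clones, 6 became 10 without a filter and 12 with all 27 libraries, and ranged from 3 to 6 leaving out 1 library. For the interaction, 4 became 7 with DESeq2 and ranged from 3 to 7 leaving out 1 library. More genes are tested without the filter. DESeq2 and the fit to all 27 libraries also tested more members than the main fit. For the tissues these were 25 and 23 members against 13. For oviductal against OSE organoids they were 14 and 23 against 9, and for tumors against clones 22 and 23 against 12. The part of this in the counts was not tested, nor was the cause for the other settings. Leaving out an OSE, mes or epi line, which leaves 1 library in that group, was chosen after seeing the data.

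Among mes and epi lines, T1-mes and T2-epi came from neighbouring tumors of 1 clone, and the block pairs T1 with T2 and T3 with T4. In the other comparisons library numbers did not pair the samples: correlations of same-numbered deviations were -0.04 to 0.09. The replicate block left 10, 8, 0 and 0 called members for the tissues, for oviductal organoids against tissue, for clones and for mes against epi lines. In both comparisons with OSE organoids it also left out library 3 of the larger group, which has no partner, and without that library alone the counts were 0 against oviductal organoids and 3 against OSE tissue. Libraries with few counts, TBP clone 1 above all, limit single genes, and at these depths a count of 0 does not show absence.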
